A study of Mus musculus with 6 samples.

Results

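The unfolded protein response is the programme by which a cell adjusts the endoplasmic reticulum (ER) to its load of unfolded protein. Its ER membrane sensors are IRE1 (gene Ern1), ATF6 (Atf6) and PERK (Eif2ak3). IRE1 splices the mRNA of the transcription factor Xbp1, ATF6 is cut in the Golgi to free a transcription factor, and PERK slows translation while favouring that of Atf4, which in turn raises Ddit3 (CHOP). Their targets include ER chaperones, folding enzymes and the machinery that returns misfolded protein to the cytosol for degradation. In the lung the pathway is known from cells that secrete much protein, such as alveolar type 2 cells, airway secretory cells and plasma cells.

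Described here are 10 genes of the pathway: the sensors Ern1 and Atf6, the transcription factors Xbp1, Atf4 and Ddit3, the ER chaperones and folding enzymes Hsp90b1, Dnajb9, Sdf2l1 and Pdia4, and the degradation factor Herpud1. A gene was taken through probe sets annotated to its symbol alone, using the probe set with the highest mean over all arrays. This gave 9 of the 10 genes among 22180 genes measured, each with 1 such probe set. The probe set that carries Pdia4 also carries another symbol, so Pdia4 is not analysed here. The genes were chosen by pathway and selected on known results of this same comparison, the log2 differences of Xbp1 and its relatives, so their differences are a description and their p-values no independent support.

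The series compared whole lung tissue of 10-week-old mice of the outbred CD1 strain. The 3 intact mice were sham controls. The 3 preconditioned mice had received 90 minutes of low-pressure mechanical ventilation, and their lungs were sampled 1 week later. Each mouse gave 1 biotin-labelled array from 100 ng of total RNA of lung tissue, called a biological replicate in the labels. Values are log2 expression after RMA, the authors' normalization, so a difference of 1 is a doubling.

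Array medians lay between 5.32 and 5.40, and correlations between arrays across probe sets between 0.970 and 0.990. Of 10 lung marker genes, the surfactant gene Sftpc and the club cell gene Scgb1a1 had means over the arrays of 13.2 and 13.5, against a median of 5.95 over all genes. In limma over all genes, 13 genes fell and 8 rose in preconditioned lungs at an adjusted p of 0.05 (Benjamini-Hochberg), or 16 and 6 when each array was centred on its median. The median log2 difference of all genes was 0.01, but for genes with a mean at or above that of Ddit3, the lowest of the 9, it was -0.12. Fewer cells of a type and less RNA per cell cannot be told apart in such tissue samples.

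In preconditioned lungs, mRNA of all 9 genes had a lower mean than in intact lungs. So did 47.3% of all genes and 70.3% of genes at or above the mean level of Ddit3. Xbp1, at -0.65, was the 1 gene of the 9 that fell at the threshold, against 0.0586% of all genes called lower and 0.0361% called higher. The means of Dnajb9 and Atf6 were lower by nearly as much (-0.61 and -0.59), those of Sdf2l1 and Herpud1 by an intermediate amount (-0.46 and -0.44), those of Ddit3, Ern1 and Hsp90b1 by less (-0.32, -0.28 and -0.24), and that of Atf4 by -0.11. The median over the 9 was -0.44, or -0.30 after cyclic loess. Without intact replicate 1, 3 of the 9 fell (Xbp1, Atf6 and Dnajb9), among 957 genes called lower in all, and without any other array 0 of the 9 were called. The preconditioned values lay wholly below the intact ones for 6 of the 9, where 13% of all genes and 26.4% of genes at or above the mean level of Ddit3 did so.

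**Figure D1:**
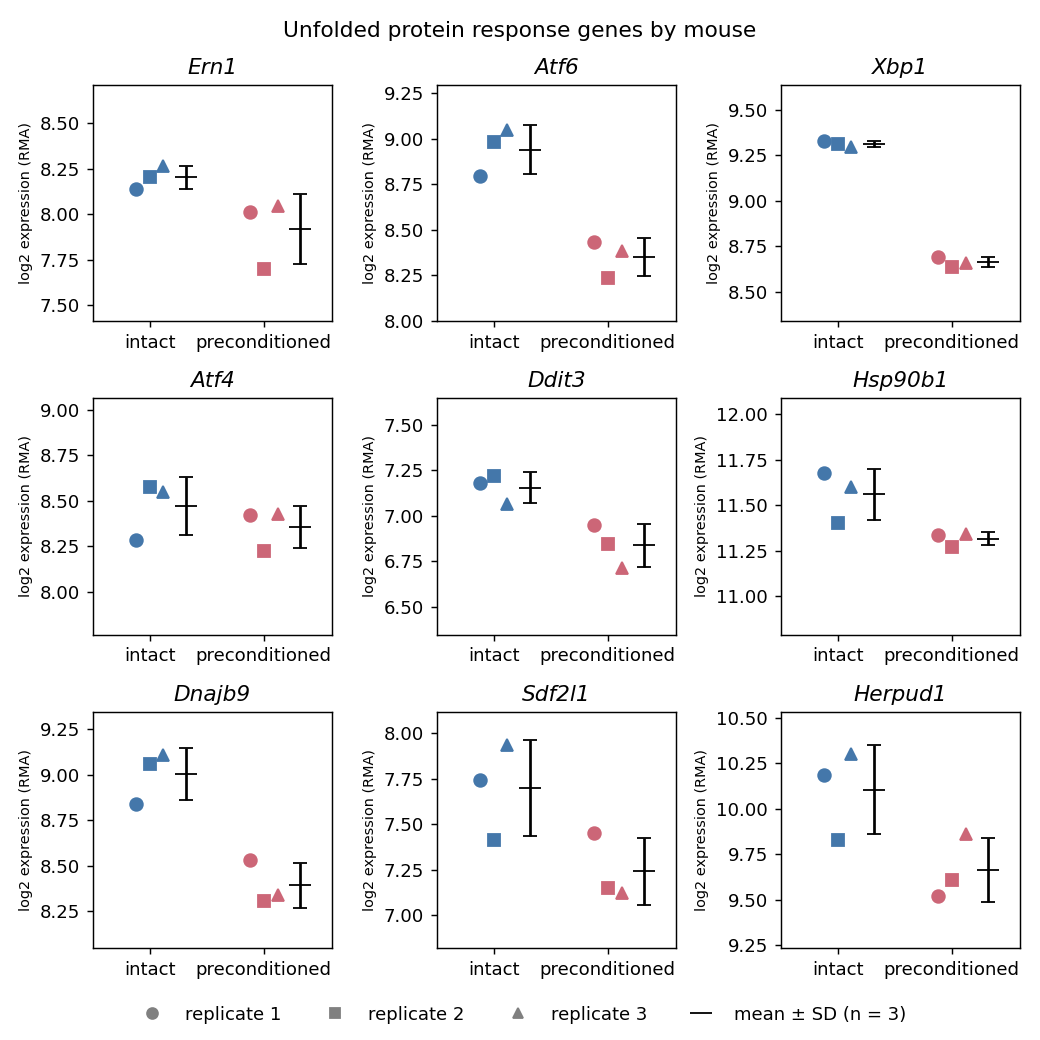
Log2 expression (RMA, y axis, each panel spanning the same range) of the 9 measured genes in 3 intact and 3 preconditioned mice, with marker shape for the replicate and bars for the mean ± SD. Xbp1 has the tightest groups and a clear gap, while Atf4, Sdf2l1 and Herpud1 overlap between the groups.

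Xbp1 (probe set 17246967), the transcription factor that drives ER chaperone, degradation and secretory genes, measured 9.33, 9.31 and 9.29 in the intact mice and 8.69, 8.64 and 8.66 in the preconditioned ones. The mice of each group differed hardly at all, and the groups lay far apart. The group means of 9.31 ± 0.02 and 8.66 ± 0.03 (SD, n = 3) differed by -0.65 (SE 0.08), or 1.57-fold, with an adjusted p of 0.0430 in limma. By size the difference lay at percentile 2.02 of all genes, and by p it was the 21st of 22180. The size hardly moved when any array was left out (-0.66 to -0.64), but the call ended without intact replicate 2 (adjusted p = 0.211), intact replicate 3 (0.199) or preconditioned replicate 1 (0.0793), 2 (0.113) or 3 (0.212). It also ended after quantile normalization again (-0.54, 0.0680) and cyclic loess (-0.52, 0.0709). Xbp1 had 1 probe set under its symbol alone, and the spliced form of its mRNA was not analysed here.

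The sensors that act on Xbp1 or beside it were next. Atf6 (probe set 17229556), which binds ER stress elements once cut free, measured 8.79, 8.98 and 9.05 in intact and 8.44, 8.23 and 8.38 in preconditioned mice. No values overlapped, and the lowest intact mouse was replicate 1. The difference was -0.59 (SE 0.11, adjusted p = 0.0803), which did not pass. Ern1 (probe set 17270888), the kinase and endoribonuclease that splices Xbp1, measured 8.14, 8.20 and 8.26 against 8.01, 7.70 and 8.05. The groups lay apart by little, and preconditioned replicate 2 was far below the others. Its difference of -0.28 (95% interval -0.55 to -0.02, not adjusted for the number of genes) did not pass (adjusted p = 0.231). It was -0.17 without preconditioned replicate 2 and -0.18 after cyclic loess. The PERK gene Eif2ak3, which is not among the 10, measured 7.36, 7.27 and 7.30 against 7.17, 7.10 and 7.24, a difference of -0.14 (95% interval -0.34 to 0.06, adjusted p = 0.406).

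The transcription factors of the PERK branch showed smaller differences. Atf4 (probe set 17313100), whose activity is set largely through translation of its mRNA, measured 8.29, 8.58 and 8.55 in intact and 8.42, 8.22 and 8.43 in preconditioned mice. Intact replicate 1 lay within the preconditioned range, and the interval of the difference, -0.37 to 0.15, held 0 (adjusted p = 0.619). Its difference was 0.00 after cyclic loess and after quantile normalization again, and between -0.20 and -0.05 with any array left out. Ddit3 (probe set 17237978), the transcription factor CHOP that favours cell death under lasting ER stress, measured 7.18, 7.22 and 7.06 against 6.95, 6.85 and 6.71. Every preconditioned mouse was below every intact one. The difference of -0.32 (SE 0.10) did not pass (adjusted p = 0.152).

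Among ER chaperones, Dnajb9 (probe set 17280893), a J-domain partner of the chaperone BiP, stood closest to Xbp1 in size. It measured 8.84, 9.06 and 9.11 in intact and 8.53, 8.31 and 8.34 in preconditioned mice. The groups did not overlap, with replicate 1 nearest to the other group on either side. With SDs of 0.14 and 0.12 (n = 3), the difference of -0.61 (SE 0.11, 1.53-fold lower) did not pass (adjusted p = 0.0803). Hsp90b1 (probe set 17243738), the ER form of heat shock protein 90, measured 11.67, 11.40 and 11.60 against 11.34, 11.27 and 11.34. The groups lay apart by a narrow margin, set by intact replicate 2, and the difference was -0.24 (adjusted p = 0.239), or -0.11 after cyclic loess. Sdf2l1 (probe set 17328625), an ER protein that works with BiP and its J-domain partners, measured 7.74, 7.41 and 7.94 against 7.45, 7.15 and 7.12. Intact replicate 2 fell below preconditioned replicate 1, and the difference was -0.46 (SE 0.15, adjusted p = 0.174).

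Herpud1 (probe set 17504005), a membrane protein of ER-associated degradation, measured 10.18, 9.83 and 10.30 in intact and 9.52, 9.61 and 9.86 in preconditioned mice. Preconditioned replicate 3 lay just above intact replicate 2. The means were 10.10 ± 0.25 and 9.66 ± 0.18 (SD, n = 3), a difference of -0.44 (SE 0.15, adjusted p = 0.172). The intact mice thus did not rank alike for all genes. Intact replicate 2 was the lowest intact mouse for Herpud1, Sdf2l1 and Hsp90b1, whereas intact replicate 1 was the lowest for Atf6, Dnajb9, Ern1 and Atf4. Averaged over the 9 genes, the deviation from each gene's own mean was 0.18, 0.16 and 0.29 in the intact and -0.14, -0.29 and -0.19 in the preconditioned mice, so that the averages did not overlap.

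**Figure D2:**
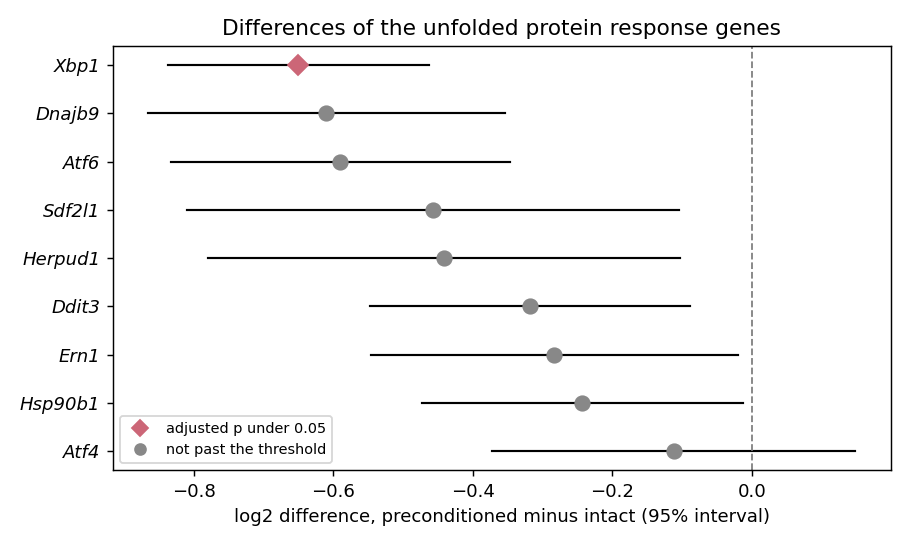
Log2 difference, preconditioned minus intact, of the 9 measured genes (x axis) with its 95% interval from limma, not adjusted for the number of genes. All lie below 0, from -0.65 for Xbp1, which passed the threshold, to -0.11 for Atf4, whose interval holds 0.

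The profile of Xbp1 over the 6 arrays was compared with that of every gene above the median level, as the root mean square difference of log2 values after each gene's own mean was subtracted. The nearest named genes were Sting1, an innate immune adaptor of the ER membrane, at 0.0484, the lysosomal sulfatase gene Arsb at 0.0531, the transcription factor gene Klf12 at 0.0542, the cytosolic chaperone gene Hspa8 at 0.0686 and the RNA-sensing receptor gene Tlr3 at 0.0703. Their differences between the groups ran from -0.67 to -0.59, and none of the 5 passed the threshold (adjusted p from 0.0503 to 0.0556). Differences near that of Xbp1 follow from the choice of these genes by likeness to it over the same arrays. Atf6 was at 0.102 and Dnajb9 at 0.109. Of all genes at any level, with Xbp1 itself counted, 27 and 45 were nearer to the profile of Xbp1 than they were. The other 6 genes lay between 0.181 for Ddit3 and 0.292 for Atf4.

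BiP, the product of Hspa5, is the main ER chaperone and binds the sensors in unstressed cells. Hspa5 measured 9.65, 9.41 and 9.35 in intact and 8.85, 8.71 and 8.73 in preconditioned mice. These groups lay well apart, and the difference of -0.71 (SE 0.11, 1.64-fold lower) stands beside -0.65 for Xbp1, but with an adjusted p of 0.0556 it did not pass. It was highest in intact replicate 1, as were Xbp1 and Hsp90b1.

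The promoters of 3 of these chaperone and degradation genes hold the classical response elements, which is why their sequences are shown, with that of Xbp1 for comparison. Each is the 250 bases before the start site in RefSeq (mouse assembly GRCm38.p6), 5′ to 3′ on the strand of the gene, with capitals for a match to a searched element.
Hsp90b1: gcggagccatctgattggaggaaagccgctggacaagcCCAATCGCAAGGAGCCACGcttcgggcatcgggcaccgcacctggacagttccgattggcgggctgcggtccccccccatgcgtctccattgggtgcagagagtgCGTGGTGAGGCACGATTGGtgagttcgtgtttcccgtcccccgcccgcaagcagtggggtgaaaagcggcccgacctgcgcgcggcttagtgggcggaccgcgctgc
Herpud1: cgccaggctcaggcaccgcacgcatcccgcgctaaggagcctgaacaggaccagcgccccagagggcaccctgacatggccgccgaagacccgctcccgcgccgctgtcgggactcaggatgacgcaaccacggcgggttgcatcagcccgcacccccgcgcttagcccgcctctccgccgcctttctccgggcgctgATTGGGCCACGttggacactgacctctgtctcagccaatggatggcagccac
Hspa5: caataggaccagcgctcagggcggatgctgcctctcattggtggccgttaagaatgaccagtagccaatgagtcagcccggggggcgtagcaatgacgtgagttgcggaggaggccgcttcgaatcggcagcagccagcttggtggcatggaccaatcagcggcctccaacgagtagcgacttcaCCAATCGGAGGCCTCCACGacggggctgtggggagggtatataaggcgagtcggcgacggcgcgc
Xbp1: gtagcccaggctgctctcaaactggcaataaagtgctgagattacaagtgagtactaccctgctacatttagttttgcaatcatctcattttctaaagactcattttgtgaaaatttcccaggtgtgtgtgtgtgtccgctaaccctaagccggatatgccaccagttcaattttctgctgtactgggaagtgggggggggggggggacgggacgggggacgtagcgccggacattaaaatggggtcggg

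These stretches are chr10:86705445-86705694 on the minus strand for Hsp90b1, chr8:94386179-94386428 on the plus strand for Herpud1, chr2:34771840-34772089 on the plus strand for Hspa5 and chr11:5520391-5520640 on the plus strand for Xbp1. The table held a promoter for 9 of the 10 genes (not Atf6) and for 95 of 116 other measured genes of the pathway. Both strands were searched for exact matches to the ER stress element (CCAAT, any 9 bases, CCACG), the related ERSE-II (ATTGG, any 1 base, CCACG), the UPRE core TGACGTGG and the C/EBP-ATF elements TGATGCAAT and TGATGAAAC. The ER stress element, bound by ATF6 with NF-Y and also by XBP1, matched at 2 places in Hsp90b1, from 212 to 194 bases before the start and, on the opposite strand, from 107 to 89. It matched from 65 to 47 bases before the start of Hspa5, and in 0.113% of all 32851 promoters. ERSE-II matched from 52 to 42 bases before the start of Herpud1 and in 0.0304% of all promoters. The 250 bases of Xbp1 held none of these letters. The short sequence CCACG, which lies inside both ER stress elements and overlaps the UPRE core read on the opposite strand, stood in 28.3% of all promoters. It was found in Atf4, Dnajb9, Ern1, Herpud1, Hsp90b1 and Sdf2l1.

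Of genes with an ER stress element in this window, 27 were measured, and these had a median difference of -0.08, with 0 past the threshold. After the values were seen, they were divided by whether they belong to the pathway lists. Of 10 that do (Hsp90b1 with Calr, Canx, Creld2, Derl3, Dnajc3, Ero1b, Hspa5, Pdia6 and Syvn1), 9 had preconditioned values wholly below the intact ones, with a median of -0.33 and a range of -0.71 to 0.09. The exception was Creld2. Of the 17 outside the lists, 1 had preconditioned values wholly below the intact ones, and their median was 0.03. The same held for 13% of all genes and 26.4% of genes at or above the mean level of Ddit3. The lists were chosen with earlier results of these data known, so the split is a description only. The UPRE core matched in 0.563% of promoters and had 126 measured genes with a median of 0.02, the C/EBP-ATF elements matched in 0.167% and 0.213% with medians of 0.03 and 0.02 over 30 and 31 genes, and ERSE-II had 7 measured genes with a median of -0.09. None of the genes with these other elements passed the threshold.

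The pathway's other genes were taken from 6 lists of 120 genes, of which 116 were measured. In limma 0 of the 116 passed the adjusted threshold. At an unadjusted p under 0.05, 44 (37.9%) had lower and 2 higher means (11.6% and 7.53% of all genes). Of 7072 genes at or above the mean level of Ddit3, 1697 (24%) had lower and 327 higher means by that measure. Without intact replicate 1, 22 of the 116 were called lower, against 4.31% of all genes in that fit; without any other array 0 were. Of the 116, 93 (80.2%) had a lower mean in preconditioned lungs, with a median of -0.21. Means were also lower for 70.3% of genes at or above the mean level of Ddit3 (median -0.12) and 47.3% of all genes. After quantile normalization again 80 had a lower mean and the median was -0.13, and after cyclic loess 79 and -0.12. The groups did not overlap for 56 that were lower and 4 that were higher. The share of lower, non-overlapping genes, 48.3%, stands beside 26.4% for genes at or above the mean level of Ddit3 and 13% for all genes.

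Of 25 ER chaperones and folding enzymes, 22 (88%) had lower means (median -0.21) and 17 (68%) were lower without overlap. These 2 shares were 70.3% and 26.4% among genes at or above the mean level of Ddit3, and 47.3% and 13% among all genes. After Hspa5, the lowest p belonged to the oxidase Ero1b (-0.47), the thioredoxin-like Txndc11 (-0.49) and the prolyl isomerase Fkbp2 (-0.39), with adjusted p from 0.0921 to 0.0949. Ero1a, the related oxidase, was at 0.26 and higher in all preconditioned mice. Of 20 measured genes of ER-associated degradation, 19 (95%) had lower means (median -0.23) and 12 (60%) were lower without overlap. The first 4 were the ubiquitin-conjugating enzyme Ube2j1 (-0.58), the mannosidase-like Edem1 (-0.52), the channel component Derl1 (-0.52) and the ubiquitin ligase Syvn1 (-0.44), with adjusted p from 0.0621 to 0.101.

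Genes of translocation into the ER and of ER-Golgi transport had a median of -0.32 over 24 genes. Of these, 20 (83.3%) had lower means, against 70.3% of genes at or above the mean level of Ddit3 and 47.3% of all genes. Without overlap 13 (54.2%) were lower, against 26.4% and 13%. First were the translocon subunit Sec61a1 (-0.54), the retrieval receptor Kdelr2 (-0.59), and the COPII coat genes Sec24d (-0.47) and Sar1b (-0.54), with adjusted p from 0.0805 to 0.0987. Sec61a1 measured 9.71, 9.83 and 9.94 in intact and 9.37, 9.18 and 9.30 in preconditioned mice, without overlap.

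The remaining sensors, proteases and partner transcription factors had a median of -0.07 over 15 genes, with 4 lower without overlap. That share, 26.7%, was close to the 26.4% of genes at or above the mean level of Ddit3 (13% of all genes). First were Creb3l2 (-0.54), an ER-bound transcription factor, the NF-Y subunit Nfya (-0.42), the ATF6 relative Atf6b (-0.46) and Wfs1 (-0.23), with adjusted p from 0.0949 to 0.278. The Golgi proteases that cut ATF6 were at -0.02 (Mbtps1) and -0.07 (Mbtps2).

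Targets of ATF4 and CHOP had a median of -0.13 over 27 genes, 18 with lower and 9 with higher means. The groups did not overlap for 8 lower and 2 higher ones (29.6% and 7.41%). These shares were close to the 26.4% and 6.69% of genes at or above the mean level of Ddit3 (13% and 11.7% of all genes). The amino acid transporter chain Slc3a2 was at -0.53 and asparagine synthetase, Asns, at -0.67, while the secreted glycoprotein gene Stc2 was at 0.49 and Eif4ebp1, a repressor of translation, at -0.35 (adjusted p from 0.0803 to 0.190). Stc2 measured 5.76, 5.90 and 5.87 in intact and 6.51, 6.36 and 6.12 in preconditioned mice, higher without overlap. Of 5 mRNAs known to be cut by IRE1, 2 (40%) were lower without overlap, Hgsnat (-0.63) and Bloc1s1 (-0.48). That share, over 5 genes only, stands beside 26.4% of genes at or above the mean level of Ddit3 and 13% of all genes. Scara3, Col6a1 and Pdgfrb were at 0.19, 0.08 and 0.01, and the median of the 5 was 0.01.

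**Figure D3:**
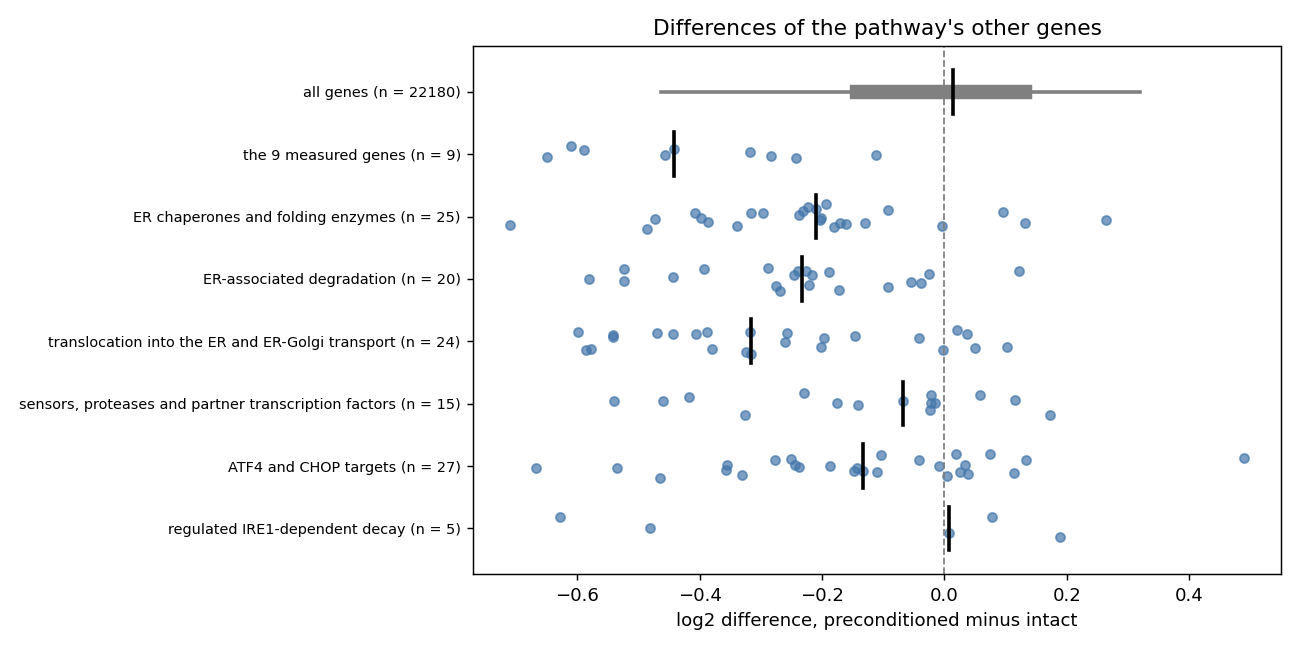
Log2 difference, preconditioned minus intact (x axis), of each gene in the 6 lists and of the 9 measured genes, with a vertical bar at each median. For all 22180 genes the thick line spans 25% to 75% of genes and the thin line 5% to 95%. Medians run from -0.44 for the 9 genes to 0.01 for IRE1-cut mRNAs, against 0.01 for all genes.

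Markers of cells and responses that could move with these genes were set beside them, each as the mean deviation of its list from the genes' own means. Their part in the differences of the unfolded protein response genes was not tested. Plasma cell markers, with 7 of 9 measured (not Igha and Igkc), were at 0.02 to 0.17 in intact and -0.36 to 0.02 in preconditioned mice. The joining chain gene Jchain, listed under its older symbol Igj, was the 1 member without overlap (-0.99), with preconditioned replicate 1 at 5.60 and the other preconditioned mice at 7.49 and 7.16. Alveolar type 2 markers, all 11 measured, were at -0.16 to 0.35 and -0.33 to 0.03, so that the groups overlapped. Of the 11, 3 (27.3%) were lower without overlap, against 26.4% of genes at or above the mean level of Ddit3 and 13% of all genes. The 9 club and goblet cell markers were at -1.23 to 0.58 and -1.08 to 1.84, with none free of overlap.

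Alveolar macrophage markers, with 9 of 12 measured (not Siglec5, Ear1 and Ear2), were at -0.01 to 0.54 in intact and -0.36 to -0.26 in preconditioned mice, and all 9 had lower means. Neutrophil markers, all 11 measured, were at -0.18 to 1.23 and -0.48 to -0.26, with intact replicate 3 highest. The 8 mesothelial markers were at 0.19 to 0.65 and -0.83 to -0.08. Cytosolic heat shock genes, with 15 of 18 measured, were at 0.28 to 0.36 and -0.37 to -0.24, and immediate early genes, all 17 measured, at 0.08 to 0.30 and -0.36 to 0.01. The heat shock genes thus parted the groups with a gap of 0.52, where the 9 unfolded protein response genes had a gap of 0.29. The gap was 0.28 for mesothelial and 0.24 for alveolar macrophage markers. Sizes within the heat shock list were unequal. Hspa1b (-2.55) and Chordc1 (-0.88) were called lower, as were 0.0586% of all genes. Of its 15 genes, 8 (53.3%) were lower without overlap, against 26.4% of genes at or above the mean level of Ddit3 and 13% of all genes.

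**Figure D4:**
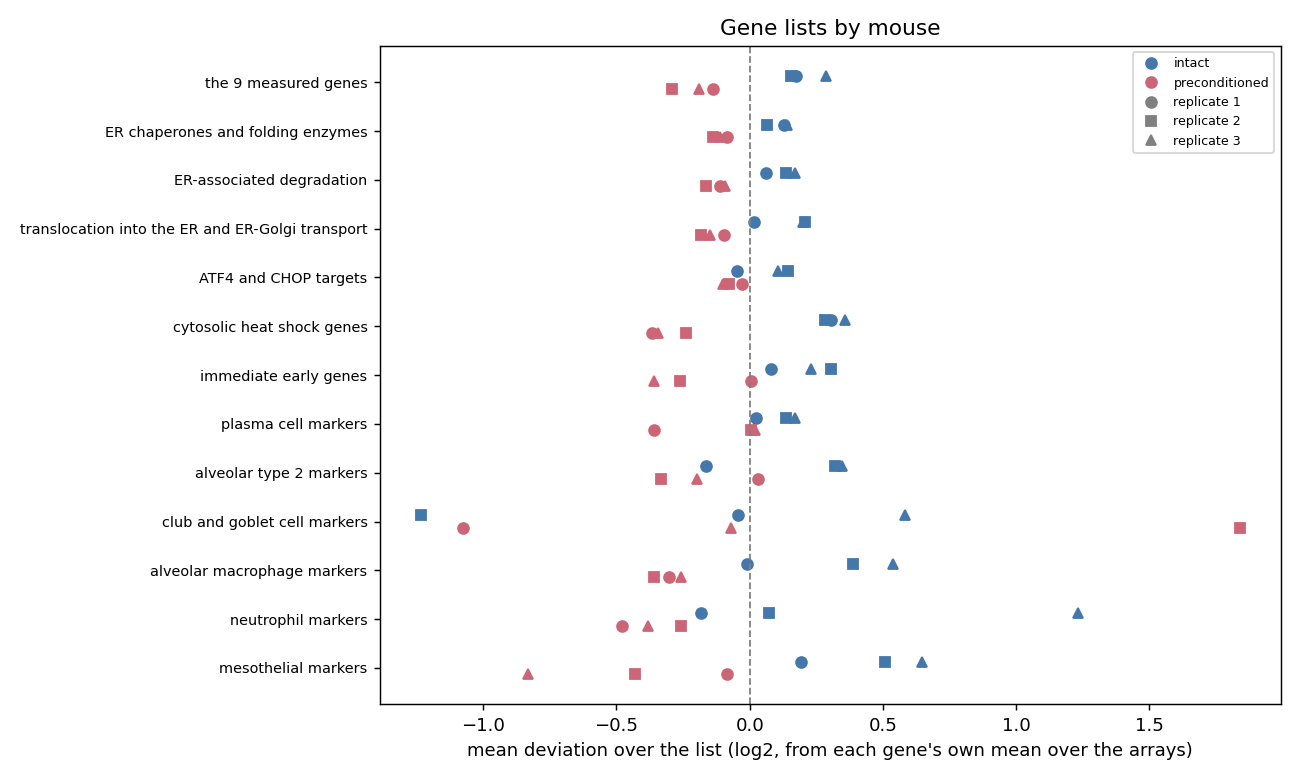
Mean deviation (log2, x axis) of each gene list from the genes' own means over the arrays, a point per mouse, with colour for the group and shape for the replicate. The 9 measured genes part the groups by 0.29 and heat shock genes by 0.52. Mesothelial markers part them by 0.28, alveolar macrophage markers by 0.24 and neutrophil markers by 0.07, while alveolar type 2 and club cell markers overlap.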

How the data were processed

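Lung RNA of 6 mice was measured on 1-colour arrays, 1 per mouse. The authors deposited log2 values made with RMA (background subtraction, quantile normalization, probe summary), and limma is also named, per the submitters' processing notes. No source used here gives versions, filters or a build. The quantile step of RMA, made before the probe summary, can hide a change that most genes share. The deposited values still did not share 1 distribution. Each preconditioned array had a higher probe-set median (5.386 or more) than any intact array (5.372 or less). Quantile normalization again moved Xbp1 from -0.65 to -0.54, the median over the 9 genes from -0.44 to -0.35 and Atf4 from -0.11 to -0.002. Centring each array on its median moved these values the other way, to -0.70, -0.49 and -0.16. The size of the differences thus depends on the normalization, and the part of the offset in it was not tested. Array values have no read depth, and 3 arrays per group limit the precision.

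Of 41345 probe sets, 23521 had 1 symbol in the platform annotation, 1814 had several and 16010 had none, which left 22180 genes. Of 225 list entries 213 were measured, 6 of them found through older symbols (RefSeq gene table, GRCm38.p6). Each gene was fitted with limma 3.58.1 (R 4.3.3; lmFit, eBayes without trend), preconditioned minus intact, with Benjamini-Hochberg adjustment over all genes at 0.05. The members and lists were chosen with earlier results of these data known. Named were all members, up to 4 genes of lowest p per pathway list, Hspa5, Eif2ak3, and the 5 genes nearest to Xbp1, predicted genes left out. Ero1a, Creld2, Jchain, Hspa1b, Chordc1, the Golgi proteases and the last of the IRE1-cut mRNAs were named after their values were seen. The split of genes with an ER stress element by list membership was made after values were seen, as was the comparison with genes at or above the mean level of Ddit3. Alternatives were a filter on level, other normalizations, variance priors, array weights, the replicate block, other uses of probe sets, an adjusted p under 0.1 and leaving out each array. Figures were drawn with matplotlib 3.10.9.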

Additional observations from a re-analysis of the deposited data

How the results depend on the processing

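All 9 genes kept lower means in the 16 alternatives run, except Atf4 after cyclic loess (0.00). Several alternatives could not change these differences: the filter on level, intensity trend, replicate block, other uses of probe sets and adjusted p under 0.1. The call of Xbp1 held in 7 of 16 alternatives. Among the 7 is the adjusted p under 0.1, which reuses the main fit and so adds no support. Leaving out 1 array each gave 0 to 3 of the 9 genes called, a median over them of -0.57 to -0.34, an Xbp1 difference of -0.66 to -0.64, 0 to 22 other pathway genes called lower, and 1 to 957 lower and 1 to 271 higher calls over all genes. The highest counts came without intact replicate 1, and in 5 of these 6 fits 0 of the 9 genes were called. After quantile normalization again 0 of the 9 were called (Xbp1 -0.54), and likewise after cyclic loess (Xbp1 -0.52, median over the 9 genes -0.30). Array weights gave 3 of the 9 (Atf6 and Dnajb9 added), 21 other pathway genes lower, and 835 lower and 290 higher calls over all genes. An adjusted p under 0.1 gave 3 of the 9, 13 others lower, and 463 and 179 over all genes. The filter on level gave 2 others lower (50 and 26 over all genes), the intensity trend 34 and 21 over all genes, and every probe set on its own 0 of the 9 (Xbp1 -0.65, adjusted p = 0.0690; 6 lower over all). With the replicate block, 0 of the 9 were called (Xbp1 -0.65, adjusted p = 0.180), and 3 lower and 1 higher over all genes. Deviations of same-numbered mice correlated at -0.06, -0.31 and -0.06 across genes, and those of differently numbered mice at -0.16 to 0.24. These values gave no sign that the numbers pair the mice, but with 3 mice per group they cannot exclude it. The cause of these changes was not tested. A sample of 3 mice per group limits every value.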
